A study of Mus musculus with 12 samples.

Results

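The genes of the circadian clock described here, in the brains of mice given saline, lipopolysaccharide or lipopolysaccharide with a solvent, are Per1, Per2, Per3, Cry1, Cry2, Nr1d1, Nr1d2, Dbp, Tef and Ciart. These 10 genes were taken by name from the 56748 in the deposited table, and all 10 passed the filter on low values. The study sequenced messenger RNA from the brains, described in the labels as whole, of 12 adult C57BL/6 mice, 1 library per mouse, with 4 mice (2 of each sex) in each of 3 arms. Control mice received phosphate-buffered saline (PBS). LPS mice received lipopolysaccharide, a bacterial wall component that activates innate immune cells, by intraperitoneal injection, 0.5 mg/kg daily on 7 days. LPS+DMA mice received the same LPS and also N,N-dimethylacetamide (DMA), a polar solvent, daily after the first LPS dose. Brains were taken on day 7. The dose of DMA, the ages of the mice and the hour of the day at which each brain was taken are not given in the sources used here. No arm received DMA without LPS, so DMA was only seen on top of LPS.

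The mammalian clock is a transcription loop of about a day. BMAL1 with CLOCK or NPAS2 binds E-box sequences and switches on the period genes (Per1 to Per3), the cryptochromes (Cry1, Cry2), the REV-ERB nuclear receptors (Nr1d1, Nr1d2), the PAR bZIP factors (Dbp, Tef) and Ciart, and the period, cryptochrome and CIART proteins then hold that complex back. The REV-ERBs repress Bmal1 through ROR elements, and the PAR bZIP factors act on D-boxes. In the brain the suprachiasmatic nucleus of the hypothalamus keeps the phase, while most other regions hold clocks of their own, so the level of each of these RNAs depends on the hour and on the region sampled.

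Facts of the libraries bear on every value that follows. Read totals recovered from the deposited values ranged from 27.5 to 41.4 M (megareads). Cerebellar granule cell RNA (Gabra6 above 1 FPKM) was found in 4 libraries: PBS female 1, LPS female 1, LPS male 1 and LPS male 2 (15.6 to 114 FPKM). It was listed at 0 in 7 libraries and at 0.170 FPKM in 1, which goes against the label of whole brain for those 8. The 4 with the signal are 3 of the 4 LPS brains and none of the LPS+DMA brains. Over a fixed list of 8 forebrain genes, the summed level was 17.9 to 815 FPKM in LPS, 680 to 1148 FPKM in LPS+DMA and 460 to 738 FPKM in PBS. Over 9 cerebellar genes the sum was 25.2 to 723 FPKM in LPS, 15.8 to 23.5 FPKM in LPS+DMA and 26.2 to 494 FPKM in PBS. Region content and the LPS arm therefore cannot be told apart for most of what follows. Another library, LPS+DMA male 1, had the highest value of the 12 in 4518 of 19571 genes, against 653 to 2125 genes in each of the others. Fewer cells of a type and less RNA per cell cannot be told apart in such bulk tissue.

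Recognised control sequences were searched for near the start sites of the members, and the windows of those on which the results turn are shown before the values. RefSeq promoter windows (build GRCm38.p6, 250 bases before to 50 after the start site) were found for 9 of the 10 members, 11 windows in all, with a pair each for Per1 and Tef; Per2 had no entry. The E-box CACGTG, which reads the same on both strands, was in 5 of these 11 windows, belonging to Per1, Cry1, Tef and Ciart, and in 7.15% of all 32851 windows of the same length. The E-box variant CACGTT, searched on both strands, was in the windows of Cry1, Cry2 and Nr1d1 and in 4.68% of all windows. The D-box TTATGTAA, on both strands, was found 2 times in the Per3 window (positions -205 and -158, with 0 at the start site) and in 0.938% of all windows. The D-box TTACGTAA was in none of the 11 and in 0.119% of all windows. The shortened cAMP response element TGACGT was in the downstream Per1 window only and in 7.51% of all windows, the full element TGACGTCA, which contains it, was in none of the 11 and in 1.79% of all windows, and the ROR element core TAGGTCA was in none and in 2.61%. The windows of Dbp and Nr1d2 held none of the sequences above. The CCAAT box, also searched on both strands, was in 10 of the 11 windows and in 37.4% of all windows. Bases G and C made up 56.3% to 73.3% of the member windows, against a median of 52.7% over all windows. The shares over all windows were not matched for this. A match describes the letters and no more.

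The 250 bases before the start site are printed for Per1 (both windows), Cry1, Cry2, Tef (the downstream window) and Ciart, since Cry2 and Tef passed the test between LPS+DMA and LPS and the other 3 held the most extreme single values. Capitals mark the E-box, its variant (read as AACGTG on the printed strand) or the shortened cAMP response element.
Per1, upstream window, chr11:69098699-69098948, plus strand: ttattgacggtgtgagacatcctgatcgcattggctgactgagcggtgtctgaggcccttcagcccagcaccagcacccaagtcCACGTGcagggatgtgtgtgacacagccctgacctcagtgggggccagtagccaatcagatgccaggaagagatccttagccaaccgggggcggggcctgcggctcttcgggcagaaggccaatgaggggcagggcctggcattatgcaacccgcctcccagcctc
Per1, downstream window, chr11:69099902-69100151, plus strand: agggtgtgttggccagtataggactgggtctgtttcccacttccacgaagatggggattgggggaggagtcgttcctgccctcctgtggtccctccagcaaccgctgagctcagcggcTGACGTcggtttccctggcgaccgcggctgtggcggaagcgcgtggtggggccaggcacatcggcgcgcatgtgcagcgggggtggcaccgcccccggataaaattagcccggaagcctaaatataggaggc
Cry1, chr10:85185055-85185304, minus strand: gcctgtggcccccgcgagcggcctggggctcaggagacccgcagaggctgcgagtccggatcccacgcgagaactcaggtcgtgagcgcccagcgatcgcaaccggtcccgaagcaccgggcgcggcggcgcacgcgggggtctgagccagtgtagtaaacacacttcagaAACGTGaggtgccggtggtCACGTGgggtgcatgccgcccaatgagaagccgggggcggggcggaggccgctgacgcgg
Cry2, chr2:92434070-92434319, minus strand: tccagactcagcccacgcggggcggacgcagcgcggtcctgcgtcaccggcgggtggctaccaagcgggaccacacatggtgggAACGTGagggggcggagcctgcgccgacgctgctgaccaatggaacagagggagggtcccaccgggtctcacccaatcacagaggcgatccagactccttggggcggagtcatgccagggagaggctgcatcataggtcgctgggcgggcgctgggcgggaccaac
Tef, downstream window, chr15:81811164-81811413, plus strand: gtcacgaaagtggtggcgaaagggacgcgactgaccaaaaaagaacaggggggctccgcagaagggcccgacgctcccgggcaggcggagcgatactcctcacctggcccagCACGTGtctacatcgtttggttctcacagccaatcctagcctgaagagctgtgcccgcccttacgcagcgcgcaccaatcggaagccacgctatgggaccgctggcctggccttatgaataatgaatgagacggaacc
Ciart, chr3:95882229-95882478, minus strand: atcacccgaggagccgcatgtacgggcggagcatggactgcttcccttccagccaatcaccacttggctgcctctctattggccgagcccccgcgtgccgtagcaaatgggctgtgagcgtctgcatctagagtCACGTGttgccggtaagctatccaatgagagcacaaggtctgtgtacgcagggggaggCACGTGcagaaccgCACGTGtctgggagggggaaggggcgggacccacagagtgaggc
Ciart held 3 E-boxes, at positions -116, -58 and -44. Cry1 held an E-box at -60 with the variant at -79, and Cry2 held the variant alone, at -166. The E-box of the upstream Per1 window lay at -166 and that of the printed Tef window at -138.

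Levels are FPKM, fragments per kilobase of gene as scaled by the authors, and can be compared between genes. In the PBS arm the order by mean (± SD, n = 4) ran from Tef at 36.0 ± 1.43 through Nr1d2 at 26.4 ± 5.25, Nr1d1 at 24.4 ± 1.37, Cry2 at 16.6 ± 1.16, Dbp at 15.0 ± 1.82 and Per1 at 11.9 ± 2.35 to Per2 at 5.93 ± 1.09, Cry1 at 5.52 ± 1.09, Per3 at 4.52 ± 0.424 and Ciart at 3.35 ± 0.654. The ranges of Nr1d2 and Nr1d1 overlapped, as did those of Cry2 and Dbp, Dbp and Per1, Per2 and Cry1, and Cry1 and Per3. The other neighbours in the order did not overlap. Over the 12 libraries the fewest reads behind a value were 193 (Ciart in LPS+DMA male 2) and the most 20676 (Tef in LPS+DMA male 1). Counting error so reached 7.20% of a value in the thinnest case, below the spread between mice.

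**Figure D1:**
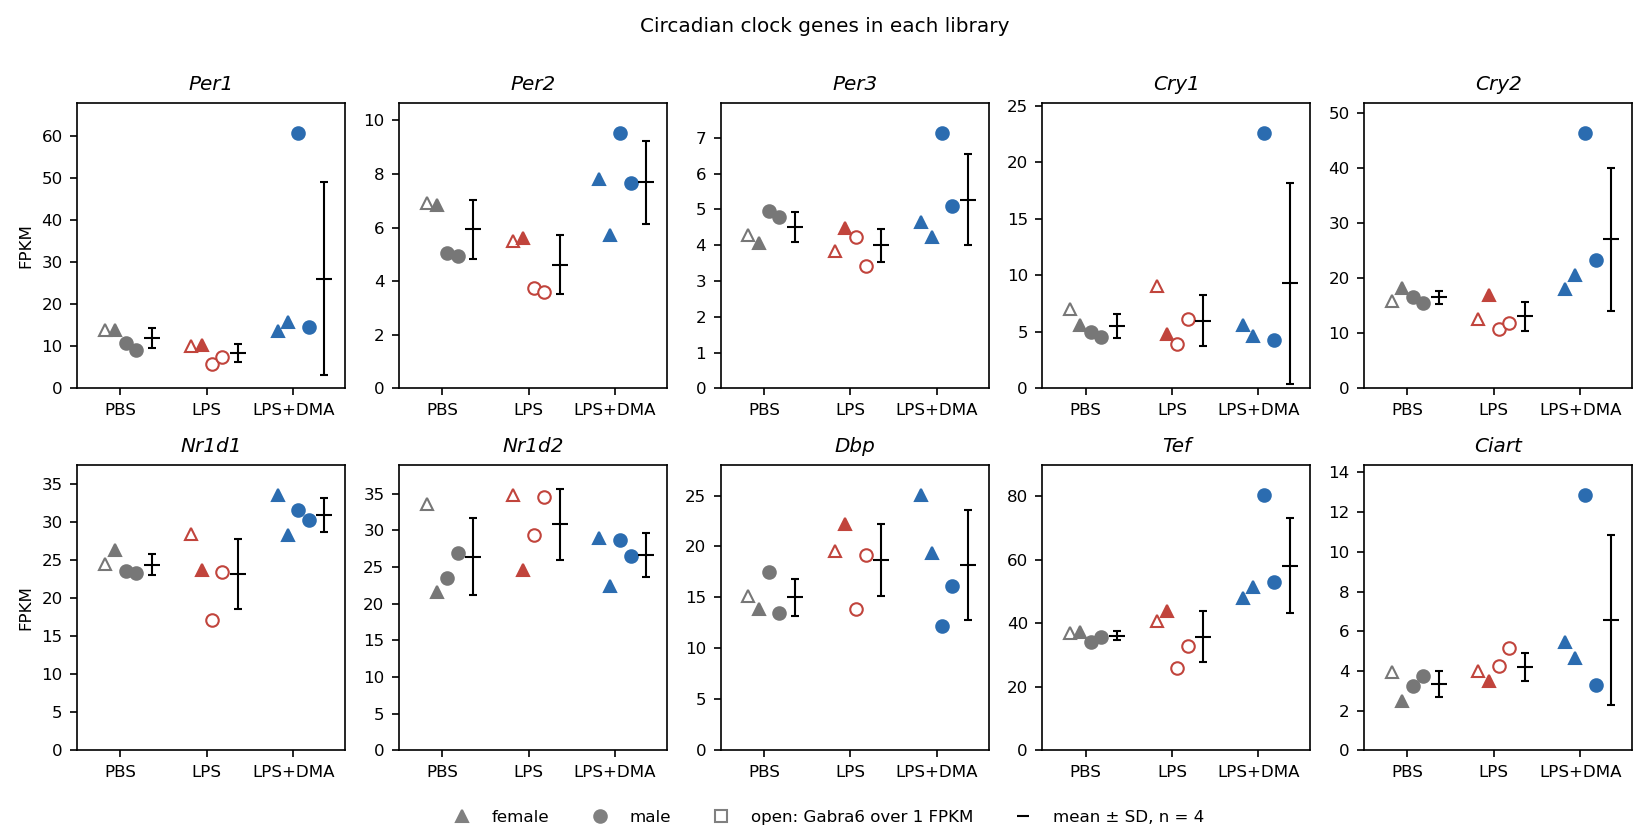
FPKM of each clock gene (vertical axes, from 0) in the 12 libraries by arm, with triangles for females, circles for males, open symbols for libraries with Gabra6 above 1 FPKM and bars for the mean ± SD of 4. One LPS+DMA male lies far above the other libraries for Per1, Cry1, Cry2 and Ciart, and the 2 open LPS males are the lowest of the 12 for Per1, Per2, Cry2 and Tef.

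LPS alone did not move the clock genes past the test. In LPS against PBS, none of the 10 passed an adjusted p of 0.05 (limma, Benjamini-Hochberg over 19571 genes) and none had an unadjusted p under 0.05. Over all genes 2 passed, 0.0102%, and 2145 had an unadjusted p under 0.05. The sign was positive in 4 members and negative in 6, with a median log2 change of -0.06 beside -0.01 over all genes. The largest difference on the log2(FPKM + 1) scale was that of Per1, -0.47 (SE 0.40, adjusted p = 0.705), with a 95% interval of -1.36 to 0.42. Intervals this wide leave changes of either sign possible. Leaving out the 4 libraries with cerebellar RNA keeps 1 LPS brain, with Per1 at 10.2 FPKM beside a mean of 11.2 FPKM (n = 3) in PBS. The fit, which adjusts for sex over all arms, then gave 0.18 for Per1, and -0.25 when LPS+DMA male 1 was left out as well, so its sign is not settled.

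In LPS+DMA against LPS, 3 of the 10 rose, Cry2, Per2 and Tef, and none fell. Of all genes tested 9.67% passed in this comparison and 5.79% rose (1133 higher and 759 lower, against 874 and 1035 with upper-quartile scaling and 589 and 2285 with per-million scaling, under which no member passed). The median log2 difference of the 10 members was 0.41, with 8 positive and 2 negative, beside a median of 0.01 over all genes. In the deposited scaling, levels of 4 members, Per1, Per2, Cry2 and Tef, were higher in every LPS+DMA brain than in every LPS brain. The same was true of 6.26% of all genes. Summed over genes, FPKM times length in kilobases was 1029080 to 1103280 per library in LPS+DMA and 916956 to 962575 in LPS. When levels are divided by these sums, Per2, Cry2 and Tef no longer stay apart, while Per1 does. LPS female 2, which had the lowest sum, then lies above an LPS+DMA female for each of Per2, Cry2 and Tef. Whether members stay apart in upper-quartile scaling was not tested. LPS+DMA and LPS differ here together with the cerebellar signal: without its 4 libraries, which leaves 1 LPS brain assumed to vary like the rest, no member passed and the differences were 0.36 for Cry2, 0.36 for Per2, 0.27 for Tef and 0.76 for Per1, and 5 genes in all passed. With the forebrain minus cerebellum score as a covariate, no member and no gene passed. The count of 3 was also 0 without any one of PBS female 1, PBS female 2, PBS male 1, PBS male 2, LPS female 1, LPS male 1, LPS male 2 or LPS+DMA male 2, 1 without LPS+DMA female 2, and 2 without LPS+DMA female 1 or LPS+DMA male 1. Over all genes 7 to 22 passed without any one of the 3 LPS brains with cerebellar RNA, and 1052 to 3465 without any one of the other 9 libraries.

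**Figure D2:**
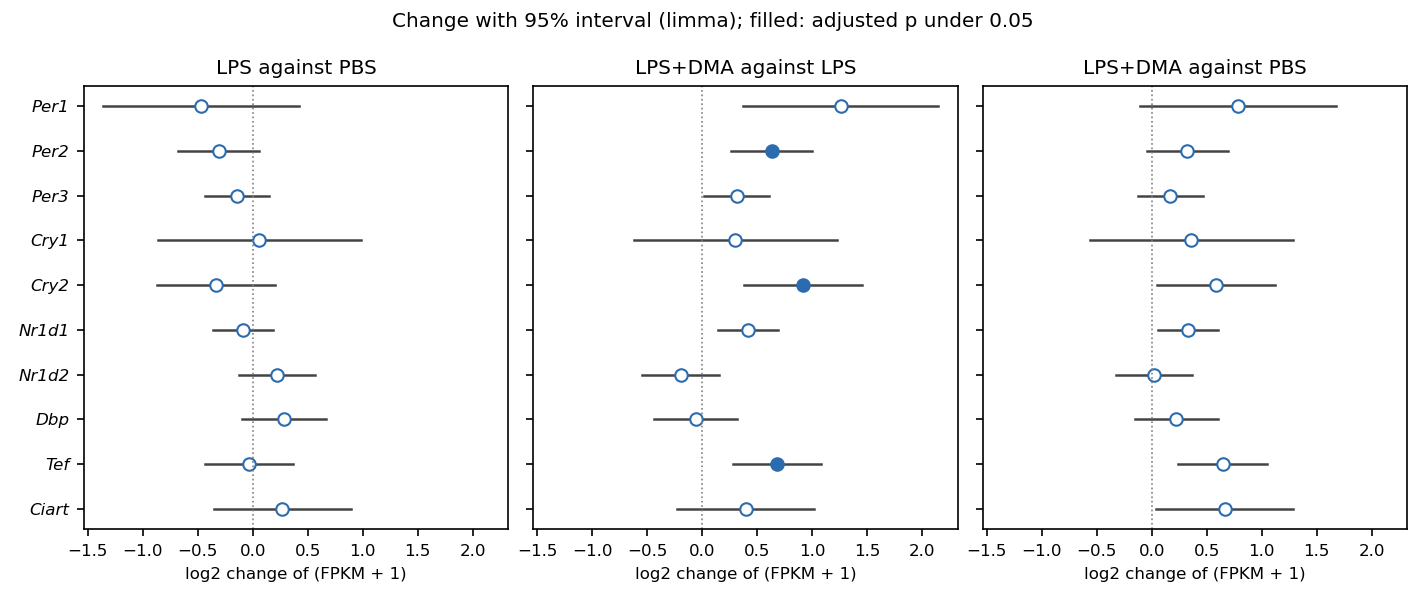
Log2 change of FPKM + 1 (horizontal axes) with its 95% interval for each clock gene in the 3 treatment comparisons; filled points passed an adjusted p of 0.05 in limma. Filled points are Per2, Cry2 and Tef in LPS+DMA against LPS only, where Per1 has the largest change, 1.26, and a wide interval.

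Per1 is a period gene that also responds quickly to outside signals such as light, cAMP and glucocorticoid hormone. Per1 (chromosome 11, 68986043 to 69000786, plus strand, in the GRCm39 coordinates of the deposited table) stood at 14.0 and 13.7 FPKM in the PBS females and 10.8 and 9.14 in the PBS males. In LPS it stood at 10.1 and 10.2 FPKM in females and 5.68 and 7.49 in males. In LPS+DMA it stood at 13.6 and 15.7 FPKM in females and 60.6 and 14.5 in males. The male with 60.6 was 3.86 times the next highest library, and the other 3 LPS+DMA brains (13.6 to 15.7) overlapped the PBS range of 9.14 to 14.0. LPS+DMA against LPS gave a log2 difference of 1.26 (SE 0.40, adjusted p = 0.0710), which did not pass. Without LPS+DMA male 1 the difference was smaller, 0.70, and passed, with an adjusted p of 0.0325.

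Per2 encodes a core period protein of the clock. Per2 (chromosome 1, 91343704 to 91387046, minus strand) stood in PBS at 6.91 and 6.83 FPKM in females and 5.05 and 4.93 in males. In LPS it stood at 5.50 and 5.61 FPKM in females and 3.75 and 3.61 in males, and in LPS+DMA at 7.81 and 5.73 in females and 9.51 and 7.67 in males. Females were above males in PBS and in LPS, and the male LPS+DMA brains were above all others except LPS+DMA female 1. The rise against LPS was 0.63 (SE 0.17, adjusted p = 0.0409), and it did not pass without LPS+DMA male 1 (0.48, adjusted p = 0.0634).

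Per3 is a period gene that is not required for the rhythm itself. Per3 (chromosome 4, 151088109 to 151129122, minus strand) ranged from 4.05 to 4.95 FPKM in PBS, from 3.43 to 4.47 in LPS and from 4.23 to 7.13 in LPS+DMA. The arms overlapped, and 0.31 (SE 0.13, adjusted p = 0.155) against LPS did not pass and was 0.19 without LPS+DMA male 1. The table places Per3 inside a span shared with Camta1 on the same strand (mean of 26.0 FPKM in LPS and 25.0 in LPS+DMA), so reads in shared exons, if any, are uncertain.

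Both cryptochromes repress BMAL1 with CLOCK. Cry2 (chromosome 2, 92233991 to 92264388, minus strand) stood in PBS at 15.9 and 18.2 FPKM in females and 16.6 and 15.5 in males. It stood in LPS at 12.6 and 17.0 FPKM in females and 10.9 and 11.9 in males, and in LPS+DMA at 18.0 and 20.6 in females and 46.3 and 23.3 in males. The 3 LPS brains with cerebellar RNA were the 3 lowest of the 12 (10.9 to 12.6), while LPS female 2, without it, lay within the PBS range. PBS female 1, which also carried cerebellar RNA, stood at 15.9, within the 15.5 to 18.2 of the PBS brains without it. The rise in LPS+DMA against LPS was 0.92 (SE 0.24, adjusted p = 0.0411), the largest of the 3 that passed, and was 0.62 without LPS+DMA male 1, where it also passed (adjusted p = 0.0394).

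Cry1 (chromosome 10, 84967564 to 85020928, minus strand) did not pass. It ranged from 4.50 to 7.01 FPKM in PBS and from 3.88 to 9.09 in LPS. In LPS+DMA 3 brains stood at 5.64, 4.62 and 4.32 FPKM and male 1 at 22.6, 2.48 times the next highest library. The arms overlapped, and the difference against LPS, 0.30 (SE 0.42, adjusted p = 0.677), turned to -0.26 without that male.

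The REV-ERB receptors bind haem and repress Bmal1. Nr1d1 (chromosome 11, 98658758 to 98666159, minus strand) stood in PBS at 24.4 and 26.3 FPKM in females and 23.6 and 23.3 in males, and in LPS at 28.5 and 23.7 in females and 17.2 and 23.4 in males. In LPS+DMA it stood at 33.5 and 28.2 FPKM in females and 31.6 and 30.3 in males. In the deposited scaling all LPS+DMA brains were above all PBS brains, but LPS female 1 lay inside the LPS+DMA range. The difference against LPS, 0.42 (SE 0.12, adjusted p = 0.0566), did not pass, and it was 0.40 without the 4 cerebellar libraries and 0.38 without LPS+DMA male 1. Nr1d1 overlaps Thra on the other strand, whose mean was 90.3 FPKM in LPS and 128 in LPS+DMA. The labels describe both a stranded and an unstranded preparation, so reads of this pair cannot be assigned with certainty.

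Nr1d2 (chromosome 14, 4230569 to 4265642, plus strand) ranged from 21.7 to 33.6 FPKM in PBS, 24.6 to 34.8 in LPS and 22.4 to 29.0 in LPS+DMA. The 3 highest libraries, at 33.6, 34.6 and 34.8 FPKM, all carried the cerebellar signal. Its difference in LPS+DMA against LPS was -0.20 (SE 0.16, adjusted p = 0.440).

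Dbp and Tef are the PAR bZIP factors, which carry the rhythm to genes of metabolism and detoxification. Tef (chromosome 15, 81686622 to 81711064, plus strand) stood in PBS at 37.0 and 37.3 FPKM in females and 34.2 and 35.5 in males, and in LPS at 40.6 and 43.9 in females and 26.1 and 32.9 in males. In LPS+DMA it stood at 47.9 and 51.4 FPKM in females and 80.2 and 52.9 in males. In the deposited scaling every LPS+DMA brain lay above all 8 others. The rise against LPS was 0.68 (SE 0.18, adjusted p = 0.0428), and 0.48 without LPS+DMA male 1, where it did not pass (adjusted p = 0.0540). Dbp (chromosome 7, 45354512 to 45359627, plus strand) ranged from 13.5 to 17.5 FPKM in PBS, 13.8 to 22.2 in LPS and 12.2 to 25.0 in LPS+DMA. Dbp was at its lowest in LPS+DMA male 1, the library where 7 other members were at their highest, and its difference against LPS was -0.06 (SE 0.17, adjusted p = 0.848), and 0.07 without that library. Dbp overlaps Sphk2 on the other strand (6.35 FPKM in LPS), and the same doubt holds as for Nr1d1.

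Ciart, a small repressor of BMAL1 with CLOCK, is on chromosome 3 (95785815 to 95789563, minus strand). Its level ranged from 2.47 to 3.94 FPKM in PBS and from 3.47 to 5.14 in LPS. In LPS+DMA it stood at 5.44, 4.65 and 3.28 FPKM in 3 brains and at 12.8 in male 1. The difference against LPS was 0.40 (SE 0.28, adjusted p = 0.384), and it was 0.06 without LPS+DMA male 1 and 0.69 without LPS+DMA male 2. Cry2, Tef and Ciart each overlap a long non-coding gene on the other strand (D930015M05Rik, Gm17597 and C920021L13Rik), whose means stayed between 0.434 and 1.22 FPKM in every arm.

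LPS+DMA against PBS uses the same LPS+DMA brains, so its values are not independent of those above. Region content differed here too. A fixed list of 8 striatal genes summed to 76.2 to 113 FPKM in PBS and 53.7 to 995 in LPS+DMA. All 8 striatal signs were positive (median 1.86) and all 9 cerebellar signs negative (median -1.34). The part of region in the clock values of this comparison was not tested beyond the covariate given below. None of the 10 passed, where 2 genes in all did (0.0102%), and 4 members had an unadjusted p under 0.05, among 2235 genes. All 10 signs were positive, with a median of 0.34 beside 0.00 over all genes. Without LPS+DMA male 1 that of Cry1 turned from 0.36 to -0.20. That of Nr1d2, 0.022, was negative with per-million or upper-quartile scaling and without any one of PBS female 2, PBS male 1, LPS+DMA female 1 or LPS+DMA male 1. The largest difference was 0.78 for Per1 (SE 0.40, adjusted p = 0.475), which was 0.23 without LPS+DMA male 1, where Tef had the largest, 0.45. In the fit of all libraries the smallest p belonged to Tef, 0.65 (SE 0.18, adjusted p = 0.324). Levels of Tef and Nr1d1 in the deposited scaling were higher in every LPS+DMA brain than in every PBS brain, as were 3.71% of all genes. The sum of FPKM times length in kilobases was 951911 to 988684 per library in PBS, below that of every LPS+DMA library. When levels are divided by that sum, Nr1d1 no longer stays apart, since PBS female 2 then lies above LPS+DMA female 2, while Tef does. Whether they stay apart in upper-quartile scaling was not tested.

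Within males, 4 members were higher in LPS+DMA than in LPS past the test: Per1 by 2.04 (SE 0.49, adjusted p = 0.0497), Tef by 1.13, Per2 by 1.03 and Cry2 by 1.45, where 3.2% of all genes rose. Both LPS males carried the cerebellar signal and neither LPS+DMA male did, so this comparison has no pair free of it. Without LPS+DMA male 1, which leaves 1 male assumed to vary like the others, 4 members again passed (1.5% of all genes rose) and the values were 1.04 for Per1, 0.83 for Tef, 0.89 for Per2 and 0.97 for Cry2. Without either LPS male, either LPS+DMA female or either PBS male, no member passed, and at most 1 gene rose over all. Without PBS female 1 or PBS female 2, 2 members passed (247 or 248 genes rose), and without LPS female 1 or LPS female 2, 3 (897 or 898 genes). Without LPS+DMA male 2, 7 members passed, where 13.9% of all genes rose. Within females none passed, where the share over all genes was 0.0% (1686 genes had an unadjusted p under 0.05), and the differences were 0.48 for Per1, 0.38 for Cry2, 0.23 for Per2 and 0.23 for Tef. The difference between the sexes itself passed for no member and 0.0% of all genes (1008 unadjusted). It was 0.80 for Per2 (SE 0.24), 0.90 for Tef (SE 0.28) and 1.08 for Cry2 (SE 0.40), each with an adjusted p of 0.853. It was larger than these for Per1, which differed by 2.04 within males and 0.48 within females. Males and females over all arms differed in none of the 10, where 0.0358% of genes passed, and the largest difference was -0.29 for Dbp (SE 0.14, adjusted p = 0.576).

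LPS+DMA male 1 gave the highest of the 12 values for 7 of the 10 members, Per1, Per2, Per3, Cry1, Cry2, Tef and Ciart, where it was highest for 23.1% of all genes. By over 1 on the log2 scale it exceeded the next library for 3 members, Per1, Cry1 and Ciart, and for 0.920% of all genes. The same brain had the highest sum of 12 genes that glucocorticoid hormone induces, 956 FPKM against 205 to 483 in the other 11. Mt2 alone gave 613 FPKM of that sum, and 10 of the 12 genes were highest there. Sult1a1 and Plin4 were highest in LPS+DMA female 2, at 15.0 and 7.35 FPKM, where Per1 stood at 15.7. In LPS+DMA male 1 Fkbp5, a glucocorticoid receptor chaperone, stood at 19.3 FPKM, and Tsc22d3, an anti-inflammatory glucocorticoid target, at 48.9. Of the 15 immediate early genes none was highest there, and their sum was 97.1 FPKM within a range of 33.6 to 270.1. Its sums for red cells (29.1 FPKM), choroid plexus (23.0), microglia (45.6), oligodendrocytes (376) and cerebellum (15.8) were the lowest of the 12. Its sum for 3 pineal genes was the highest, but near the floor, at 0.616 FPKM against at most 0.528 in the other 11. Of these 3, Tph1 and Crx did not pass the filter. The part of any of these in the clock values was not tested.

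**Figure D3:**
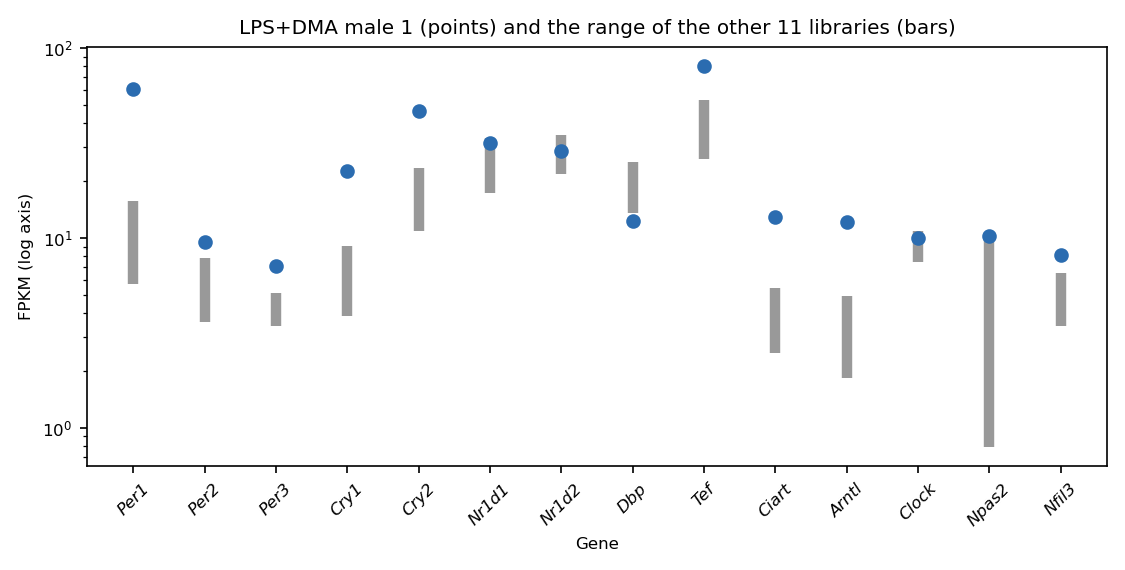
FPKM (log axis) of the 10 clock genes and of Arntl, Clock, Npas2 and Nfil3 in LPS+DMA male 1 (points), with the range of the other 11 libraries as bars. The point lies above the bar for Per1, Per2, Per3, Cry1, Cry2, Tef, Ciart, Arntl and Nfil3, and below it for Dbp.

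The rest of the loop was read from 23 further genes, all of which were tested. None passed in LPS against PBS, where 5 had an unadjusted p under 0.05, or in LPS+DMA against PBS. In LPS+DMA against LPS 5 rose and none fell: Npas2, Bhlhe40, Hlf, Csnk1e and Gsk3b, with a median over the 23 of 0.18 beside 0.01 over all genes, of which 5.79% rose. None of the 23 passed without the 4 cerebellar libraries, or without any one of LPS female 1, LPS male 1 or LPS male 2; 8 passed without LPS female 2 (3465 of all genes), 6 without LPS+DMA male 1 (1506) and 3 without LPS+DMA female 1 (1228), PBS male 1 (1166) or PBS male 2 (1052). Npas2, the partner of BMAL1 in forebrain neurons, rose most, by 1.87 (SE 0.31, adjusted p = 0.0186). It stood at 1.53, 0.975 and 0.789 FPKM in the LPS brains with cerebellar RNA and at 5.14 in LPS female 2, against 7.51 to 10.7 in LPS+DMA and 3.77 to 8.01 in PBS. Within the LPS arm the 3 low values were those of the brains with cerebellar RNA, and the lowest PBS value, 3.77, was that of PBS female 1, which also carried it.

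Bmal1, listed as Arntl, is the activator without which the clock stops. It stood in PBS at 4.43 and 4.85 FPKM in females and 3.76 and 3.32 in males, in LPS at 2.71 and 3.14 in females and 1.82 and 2.90 in males, and in LPS+DMA at 4.92 and 4.47 in females and 12.1 and 3.91 in males. In the deposited scaling the LPS brains were the 4 lowest of the 12 for Bmal1. Of all 19571 genes, 646 were lower in every LPS brain than in every PBS brain, among them also Arntl2 and Csnk1e. Those higher in every LPS+DMA brain than in every LPS brain numbered 1226. For Bmal1 neither -0.49 against PBS (SE 0.27, adjusted p = 0.549) nor 0.91 for LPS+DMA against LPS (SE 0.27, adjusted p = 0.0595) passed. Clock ranged only from 7.47 to 10.8 FPKM over the 12 libraries, and its difference was 0.23 (SE 0.11, adjusted p = 0.200). Nfil3, which competes with the PAR bZIP factors at D-boxes, ranged from 3.42 to 6.56 FPKM in 11 libraries and stood at 8.11 in LPS+DMA male 1.

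Bhlhe40 (DEC1), an E-box repressor, rose by 0.73 (SE 0.15, adjusted p = 0.0213), from 12.2 to 21.3 FPKM in LPS to 22.9 to 37.2 in LPS+DMA. Hlf, the third PAR bZIP factor, rose by 0.84 (SE 0.22, adjusted p = 0.0415). LPS female 2 at 31.7 FPKM lay inside the LPS+DMA range of 27.2 to 47.0. The other LPS brains, which carried cerebellar RNA, stood at 14.2 to 19.6 FPKM, while PBS female 1, which also carried it, stood at 29.5. Among the kinases that act on clock proteins, Csnk1e rose by 0.49 (SE 0.13, adjusted p = 0.0387) and Gsk3b by 0.50 (SE 0.10, adjusted p = 0.0218).

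**Figure D4:**
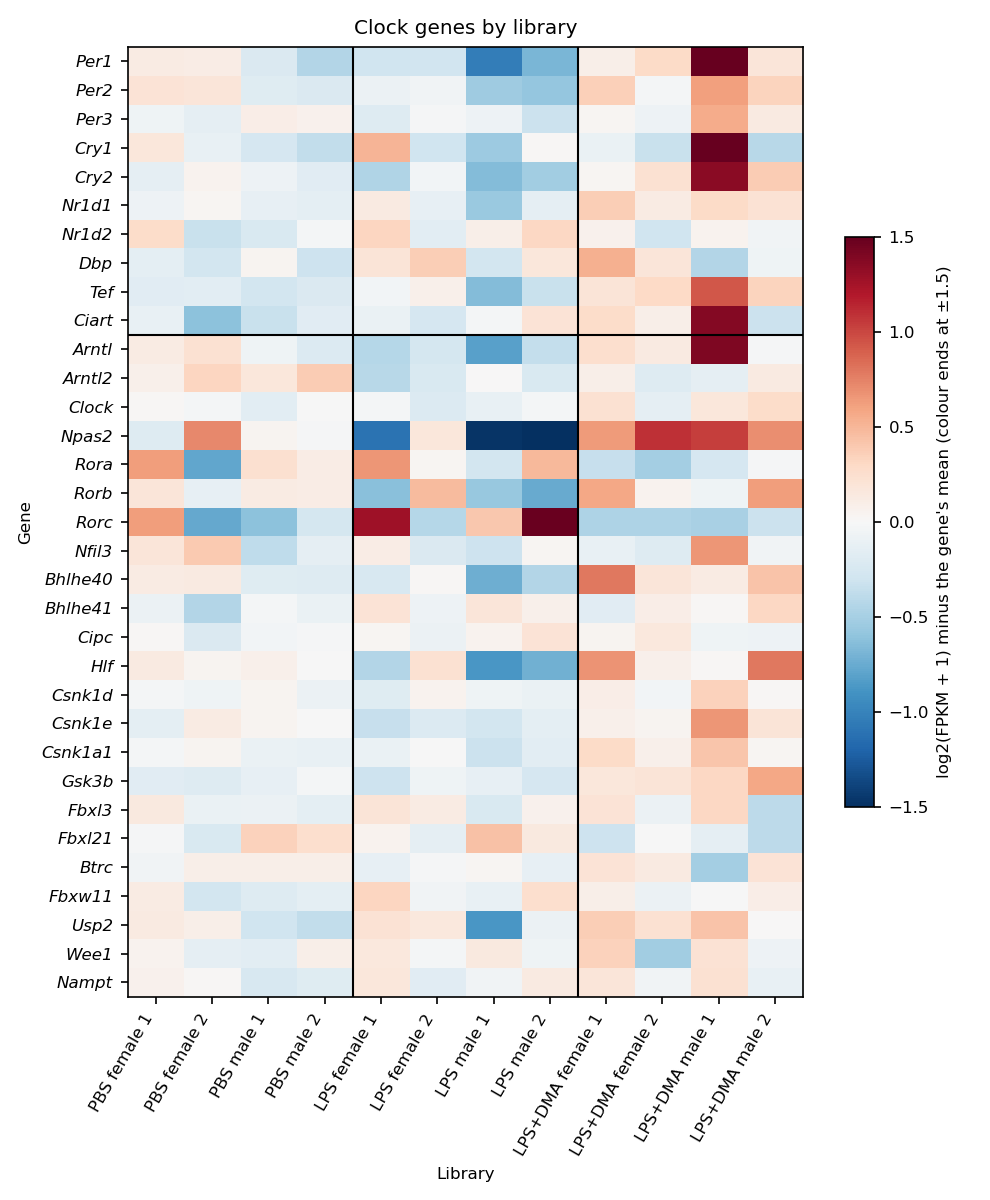
Log2(FPKM + 1) of the 10 clock genes (above the line) and 23 other clock genes in each library, minus the gene's mean over the 12; colours end at ±1.5. The column of LPS+DMA male 1 is red for most members and blue for Dbp, and Npas2 is darkest blue in the 2 LPS males.

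The members differed in how closely they followed the others. Over the 12 libraries, Pearson's r of each member with the mean of the other 9, given as a description, was 0.93 for Per1, 0.91 for Tef, 0.86 for Cry2, 0.78 for Cry1, 0.77 for Per2, 0.73 for Per3, 0.72 for Ciart and 0.72 for Nr1d1. It was -0.02 for Nr1d2 and -0.22 for Dbp. Without LPS+DMA male 1 it fell to 0.19 for Cry1, 0.15 for Per3 and 0.03 for Ciart, while Nr1d1 stood at 0.93, Tef at 0.85, Per2 at 0.75, Per1 at 0.74 and Cry2 at 0.56. That of Dbp changed sign, to 0.48, so its negative value rested on this 1 library, and that of Nr1d2 was -0.16. The libraries share region content and the same males and females, so these values describe these 12 brains.

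**Figure D5:**
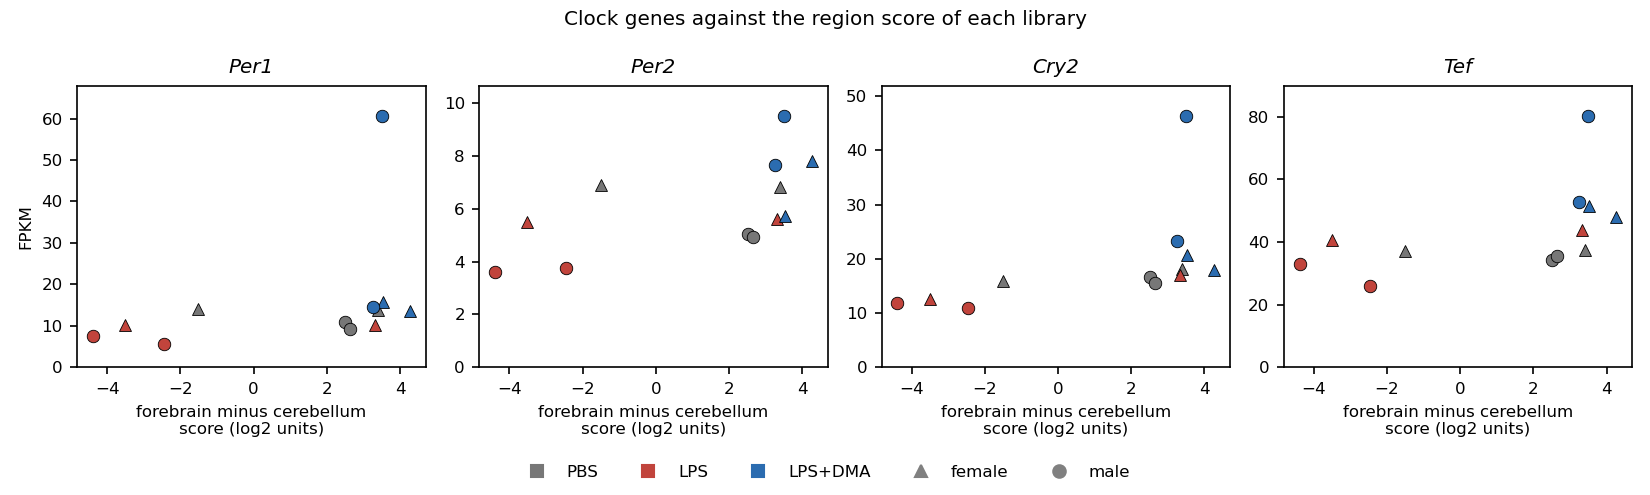
FPKM of Per1, Per2, Cry2 and Tef (vertical axes) against each library's forebrain minus cerebellum score (mean log2 of 8 forebrain genes minus that of 9 cerebellar genes). The 4 libraries with negative scores are 3 LPS brains and PBS female 1, and all LPS+DMA brains have scores above 3.

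Among 12125 other protein-coding genes with a mean of at least 1 FPKM, the 5 closest to the mean of the 10 members over the 12 libraries were Epc2, a chromatin regulator (r = 0.99), Ctdspl2 (0.98), Slc25a51, the mitochondrial NAD carrier (0.97), Ahctf1, a nuclear pore gene (0.97), and Sp3, a transcription factor (0.96). The 5 most opposite were Dnaaf9 (-0.95), Cdk18 (-0.95), Hdac1 (-0.94), Zfp14 (-0.94) and Bscl2 (-0.94). LPS+DMA male 1 held the extreme value of the 12 for each of these 10 genes. Epc2 stood at 29.9 FPKM there and at 6.79 to 12.4 in the other 11. Without that library r was 0.96 for Epc2 and -0.74 for Hdac1.

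Other lists moved beside the clock genes in LPS+DMA against LPS, where 1133 of all 19571 genes rose (5.79%) and 759 fell. Of the 8 forebrain genes 7 rose, of 15 immediate early genes 6 rose, of 12 glucocorticoid-induced genes 2 rose (Klf9 and Zbtb16), and of 10 choroid plexus genes 6 fell. Among 5 genes each, 2 neuronal genes rose and 1 fell, and 2 astrocyte, 2 microglial, 1 oligodendrocyte and 1 endothelial gene fell. Of 8 striatal genes 1 rose, and none of the 9 cerebellar, 5 red cell and 1 pineal genes tested passed. Their shifts were still large. All 8 striatal signs were positive (median 1.78), and all 9 cerebellar (median -2.71) and all 5 red cell signs (median -1.51) were negative. The pineal gene changed by 0.10. The sum of the 10 choroid plexus genes was 253 to 2007 FPKM in LPS and 23.0 to 499 in LPS+DMA. With the choroid plexus score as a covariate no member and no gene passed. Of the 10 hypothalamic and suprachiasmatic genes 7 were tested and 1 rose (Vip), and their sum was 8.03 to 307 FPKM in LPS and 14.4 to 221 in LPS+DMA. Six6, Nms and Sim1, markers of the suprachiasmatic nucleus and nearby hypothalamus, did not pass the filter, so the values above say little of that nucleus. The part of these lists in the clock values was not tested beyond the covariates given.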

How the data were processed

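Libraries were poly-A RNA-seq of brain, 12 samples. FPKM values per gene were deposited by the authors, with gene names, lengths and GRCm39 coordinates. The submitters' processing notes name fastp, HISAT2 2.2.1, featureCounts 2.0.6 and other tools without role or order. FPKM times length was a whole multiple of 1 step per library within 0.1 reads (100% of values up to 1000 reads), which gave depths of 27.5 to 41.4 M reads.

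The 19571 genes that reached 0.5 FPKM in 2 or more libraries were fitted as log2(FPKM + 1) in limma 3.58.1 (R 4.3.3), with sex and treatment over all 12 libraries, mean-variance trend and robust moderation, and Benjamini-Hochberg adjustment over all genes at 0.05. That scale understates changes of low genes. Sexes were compared with 1 mean per arm and sex. The code was tested on simulated data. Each library is 1 mouse. The correlation of log2 values between libraries was 0.889 to 0.981. The members and gene lists were chosen with earlier results of these data known. The text gives all 10 members, other clock genes that passed, and Bmal1, Clock, Npas2 and Nfil3. Promoter sequences are from RefSeq (GRCm38.p6), kept apart from the deposited coordinates. Tests were rerun under other pseudocounts, filters, scalings, models and sample sets.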

Additional observations from a re-analysis of the deposited data

Results flagged for a closer look

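In 6 cases 1 brain lay far from the other 3 of its arm, by a gap that, as a share of the arm's range, exceeded Dixon's 95% critical value for 4 samples. In LPS+DMA male 1 these were Per1 at 60.6 FPKM (next 15.7), Cry1 at 22.6 (next 5.64), Tef at 80.2 (next 52.9), Arntl at 12.1 (next 4.92) and Nfil3 at 8.11 (next 4.53). The sixth was Npas2 in LPS female 2, at 5.14 FPKM (next 1.53), the LPS brain without the cerebellar signal, and it lay only just past that value. Chance gives such a gap in about 1 in 20 groups. Over all 19571 genes 10.4% had such a gap in LPS+DMA, 6.01% of genes through male 1, against 1966 genes in LPS and 1743 in PBS. In LPS+DMA 5 of the 14 genes looked at had one, in LPS 1 and in PBS none.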

How the results depend on the processing

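All 27 fits gave 0 clock genes passing in LPS against PBS and in LPS+DMA against PBS. In LPS+DMA against LPS all 10 kept their sign with another pseudocount, filter, scaling, variance model or model without sex, and 3 or 4 clock genes passed, except that 0 passed without a filter (83 genes and 0 other clock genes), 0 with only the 2 arms fitted (6 genes, 0 other clock genes) and 0 with per-million scaling (2874 genes, 2 other clock genes), which moved the median of all genes to -0.11; Cry2 was then 0.73. Voom on recovered reads called 2080 genes. Genes passing in LPS against PBS numbered 1 with pseudocount 0.1, without a filter or with voom, and 4 with 2 arms; in LPS+DMA against PBS they numbered 0 without a filter, with 2 arms, without sex or with voom. Tef in LPS against PBS turned to 0.012 with per-million scaling, and Nr1d2 in LPS+DMA against PBS to -0.12 with per-million and -0.029 with upper-quartile scaling. The cause of these was not tested.

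With the replicate block (sex and number), 1 clock gene passed in LPS+DMA against LPS (Cry2, adjusted p = 0.0423; 2040 genes), and 1 gene in each of the other 2 comparisons. Per2 (adjusted p = 0.0527) and Tef (0.0581) did not pass under it. Deviations from the arm mean correlated above 0.1 in 6 of 12 pairs of the same sex and number (-0.02 to 0.39) and in 4 of 36 other pairs (-0.38 to 0.34), and 2 of 12 libraries matched their own number best. Since the labels name no shared litter or batch and not every pair was above 0.1, the numbers were not taken to pair the samples.

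With the forebrain minus cerebellum score, 0 clock, 0 other clock and 0 genes in all passed in LPS+DMA against LPS, 0 genes in LPS against PBS and 1 in LPS+DMA against PBS; the LPS against PBS values turned for Cry1 (-0.17), Nr1d2 (-0.043) and Tef (0.061), and Nr1d2 in LPS+DMA against LPS to 0.21. With the choroid plexus score 0 passed in all 3 comparisons; in LPS against PBS Per1 (0.061), Cry2 (0.089), Nr1d1 (0.051), Nr1d2 (-0.083) and Tef (0.27) turned, and in LPS+DMA against LPS Nr1d2 (0.10) and Dbp (0.025). Without the 4 cerebellar libraries 4 genes passed between LPS and PBS, 5 between LPS+DMA and LPS (0 other clock genes) and 0 between LPS+DMA and PBS, with 0 clock genes in each; in LPS against PBS Per1 (0.18), Per2 (0.035), Per3 (0.18), Cry2 (0.27) and Tef (0.42) turned, and in LPS+DMA against LPS Nr1d2 (0.029). Leaving out LPS+DMA male 1 as well, chosen after seeing the data, gave 4, 4 and 0 genes in the same order, again with 0 clock genes, with Per1 (-0.25) and Per2 (-0.058) negative as in all libraries and Per3 (0.099), Cry1 (-0.18), Cry2 (0.048) and Tef (0.29) turned in LPS against PBS, Per3 (-0.018) and Nr1d2 (0.023) in LPS+DMA against LPS and Cry1 (-0.11) in LPS+DMA against PBS.

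Leaving out 1 library at a time gave 0 to 672 genes in LPS against PBS (0 to 1 other clock gene), 7 to 3465 in LPS+DMA against LPS (0 to 3 clock and 0 to 8 other clock genes) and 0 to 6 in LPS+DMA against PBS. Ranges that crossed 0 were, in LPS against PBS, Cry1 (-0.17 to 0.24), Nr1d1 (-0.18 to 0.026) and Tef (-0.14 to 0.11); in LPS+DMA against LPS, Dbp (-0.19 to 0.068) and Cry1 (-0.26 to 0.55); and in LPS+DMA against PBS, Nr1d2 (-0.066 to 0.16) and Cry1 (-0.20 to 0.61). Within males, a set of fits added after seeing the data, 0 to 7 clock genes and 0 to 4889 genes in all passed, and Dbp (-0.42 to 0.024), Cry1 (-0.15 to 1.99) and Ciart (-0.41 to 1.29) crossed 0. Depth limits none of the members, which rested on at least 193 reads.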
